A study of Mus musculus with 24 samples.

Results

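The genes described are 33 mouse genes of glycolysis and of the response to low oxygen, chosen by name from earlier results of these data. Of these, 20 act in glucose uptake, glycolysis and lactate export or control its rate. The other 13 encode subunits of the hypoxia-inducible factors, sense oxygen or are known targets of those factors. All 33 had an entry in the deposited expression table of 29020 genes, and all 33 passed a filter on low values (1 or more in 6 or more libraries), as did 14544 genes in all. Total RNA was sequenced from the mesenteric arteries, the small arteries that feed the gut, of 24 male mice in 4 groups of 6, with 1 mouse per library. The ieCre mice carry a Cre recombinase that tamoxifen switches on and that the endothelium-specific Tie2 promoter drives, and they served as controls. The ieET-1 mice carry the same Cre and, once induced, overexpress human endothelin-1, a vasoconstrictor peptide, in the endothelium. All mice were 10 to 12 weeks old when treated, and all received tamoxifen under the skin at 1 mg/kg/day for 5 days. They were killed 16 days later (short term) or 3 months later (long term), so the groups are ieCre and ieET-1 at each time. Cre and tamoxifen are thus shared by every group, and no group without them was analysed here.

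Glycolysis splits glucose into pyruvate in the cytoplasm and yields energy without oxygen, and lactate dehydrogenase and the lactate exporter carry off the end product when pyruvate is not burned in mitochondria. Hypoxia-inducible factors are pairs of proteins whose alpha subunit is hydroxylated by prolyl hydroxylases and destroyed when oxygen is present. When oxygen falls the alpha subunit persists, enters the nucleus and switches on genes of glucose uptake, of nearly every glycolytic step, of mitophagy, of collagen processing and of vessel tone. Arterial smooth muscle makes much lactate even when oxygen is plentiful, and endothelial cells draw most of their energy from glycolysis.

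Reads counted for genes, recovered from the deposited values as whole reads, came to 9635250 to 16181605 per library, with a median of 13017255. At these totals 3 reads of a gene amount to a normalised value of 0.177 to 0.461. Gm42418, which shares sequence with ribosomal RNA, took over 10% of the reads in 4 libraries. They are those of mice 9955 (ieCre short term), 9491 (ieCre long term), and 8135 and 8136 (ieET-1 long term). In these 4 libraries a read counted for more than its CPM, for instance 0.154 in mouse 8135, which held 9635250 reads. In the other libraries the scale was close to CPM. Every one of 7 smooth muscle and 7 endothelial markers passed the filter on low values, and the summed smooth muscle markers ran from 8926 to 21017 per library. All 9 markers of pancreatic acinar cells passed as well, and their sum ran from 95.7 to 60542 across the libraries, so the level of pancreatic genes differed widely between mice. These are bulk samples, in which fewer cells of a type and less RNA per cell cannot be told apart. The IDs of the mice were grouped into ranges set separately at each time. At 16 days these were 1 to 3 digits or 4 digits (8754 to 9958). At 3 months they were 80xx to 81xx or 94xx, which also have 4 digits.

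The promoters of 4 of the genes are shown because a hypoxia-inducible factor binds a short core, and 3 of the genes (Hk2, Slc2a1 and Slc16a3) were among those that rose with time below, while Ldha, the lactate dehydrogenase often used as an example of a target, did not pass. The core was searched as ACGTG or GCGTG, on both strands (CACGT and CACGC on the strand shown), and matches are in capitals; overlapping matches run together, as in CACGTG. The sequences are the 250 bases before the start site in RefSeq, build GRCm38.p6, 5′ to 3′ on the strand of the gene.
Hk2, chr6:82774455-82774704, minus strand: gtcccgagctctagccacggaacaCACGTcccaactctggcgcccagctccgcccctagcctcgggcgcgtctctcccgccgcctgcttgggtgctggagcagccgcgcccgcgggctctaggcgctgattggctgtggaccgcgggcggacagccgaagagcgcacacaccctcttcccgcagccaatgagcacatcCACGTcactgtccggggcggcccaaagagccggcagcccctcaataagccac
Slc2a1, chr4:119108495-119108744, plus strand: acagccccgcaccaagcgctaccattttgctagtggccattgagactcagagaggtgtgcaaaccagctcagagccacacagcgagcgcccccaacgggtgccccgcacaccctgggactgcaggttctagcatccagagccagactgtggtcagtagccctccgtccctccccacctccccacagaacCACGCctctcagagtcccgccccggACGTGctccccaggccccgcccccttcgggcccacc
Slc16a3, chr11:120948817-120949066, plus strand: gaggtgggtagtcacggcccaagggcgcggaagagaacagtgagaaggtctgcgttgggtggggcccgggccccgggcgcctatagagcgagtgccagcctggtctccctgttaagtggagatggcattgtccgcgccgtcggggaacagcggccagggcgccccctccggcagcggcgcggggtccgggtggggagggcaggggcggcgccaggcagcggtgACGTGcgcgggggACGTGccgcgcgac
Ldha, chr7:46845554-46845803, plus strand: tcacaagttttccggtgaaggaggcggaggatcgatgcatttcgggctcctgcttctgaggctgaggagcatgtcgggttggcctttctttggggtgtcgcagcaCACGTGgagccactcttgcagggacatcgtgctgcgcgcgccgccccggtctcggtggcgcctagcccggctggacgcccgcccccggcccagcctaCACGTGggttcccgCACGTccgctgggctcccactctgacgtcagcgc

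Of the 33 genes, 29 had at least 1 promoter in the RefSeq table, taken as 250 bases before to 50 after the start. ACGTG on either strand was found in 20 of these 29 genes (69.0%), against 21.8% of all 27025 genes with a promoter. ACGTG or GCGTG was found in 26 of 29 (89.7%) against 46.7%. Counted by promoter, ACGTG was in 23 of 42 (54.8%), against 19.6% of all 32851 promoters. The genes were chosen partly as known targets of these factors, so a higher share came with the choice. Base makeup was not matched between the genes and the rest. A match describes these letters only, and binding was not measured in these arteries. In Hk2 the matches began 226 and 52 bases before the start site, and in Slc16a3 27 and 14 bases before it. Ldha carried more matches than any of the other 3 and did not pass the test in any comparison.

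Levels were compared between genes per kilobase of merged exons. Aldoa, the aldolase of muscle and most other tissues, averaged 118 per kilobase over the 24 libraries (range 55.9 to 167), Pkm, the pyruvate kinase of most tissues outside the liver, averaged 104 (50.1 to 148), and Ldha averaged 78.7 (58.6 to 108). These ranges overlap, so the order of the 3 most abundant genes is not firm. At the other end, Ankrd37, a small ankyrin-repeat target of the hypoxia-inducible factors, averaged 0.765 and Aldoc, the aldolase best known from brain, averaged 0.336. Among the transcription factor subunits, Epas1 averaged 55.2 and Hif1a 51.1 per kilobase, with overlapping ranges of 24.8 to 82.9 and 35.5 to 71.7.

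The change from 16 days to 3 months was asked within each genotype. All mice were treated at the same age, so the 3-month mice were also older when killed. Time after tamoxifen and age cannot be told apart. In ieET-1 arteries 8 of the 33 genes (24.2%) passed the test, all higher at 3 months: Hk2, Eno1, Gpi1, Pfkl, Aldoa, Pkm, Slc2a1 and Slc16a3. Together they encode a glucose transporter, a hexokinase, the isomerase, a phosphofructokinase, an aldolase, an enolase, a pyruvate kinase and a lactate exporter. The test was limma on log2(value + 1) with Benjamini-Hochberg adjustment over all 14544 genes at 0.05. It called 8.66% of all genes in that comparison, 5.27% as higher and 3.39% as lower. The direction over all genes depended on the scaling, with 563 higher and 600 lower after quantile normalization and 308 higher and 716 lower when rescaled to the total without Gm42418. On recovered reads edgeR called the same number of the 33, 8, against 9.04% of all genes, and DESeq2 called 10 against 13.1%. The largest change was that of Hk2, 2.01-fold, and the smallest called change was 1.48-fold for Slc16a3. In ieCre arteries 0 of the 33 passed, against 3.3% of all genes called (1.93% higher and 1.37% lower), and 8 of the 33 had an unadjusted p under 0.05, as did 2610 of all genes (17.9%). There edgeR called 0 of the 33 and DESeq2 called 1 (Hk2), against 3.3% and 5.47% of all genes. The 2 genotypes' changes were not shown to differ, as the interaction below gives.

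**Figure D1:**
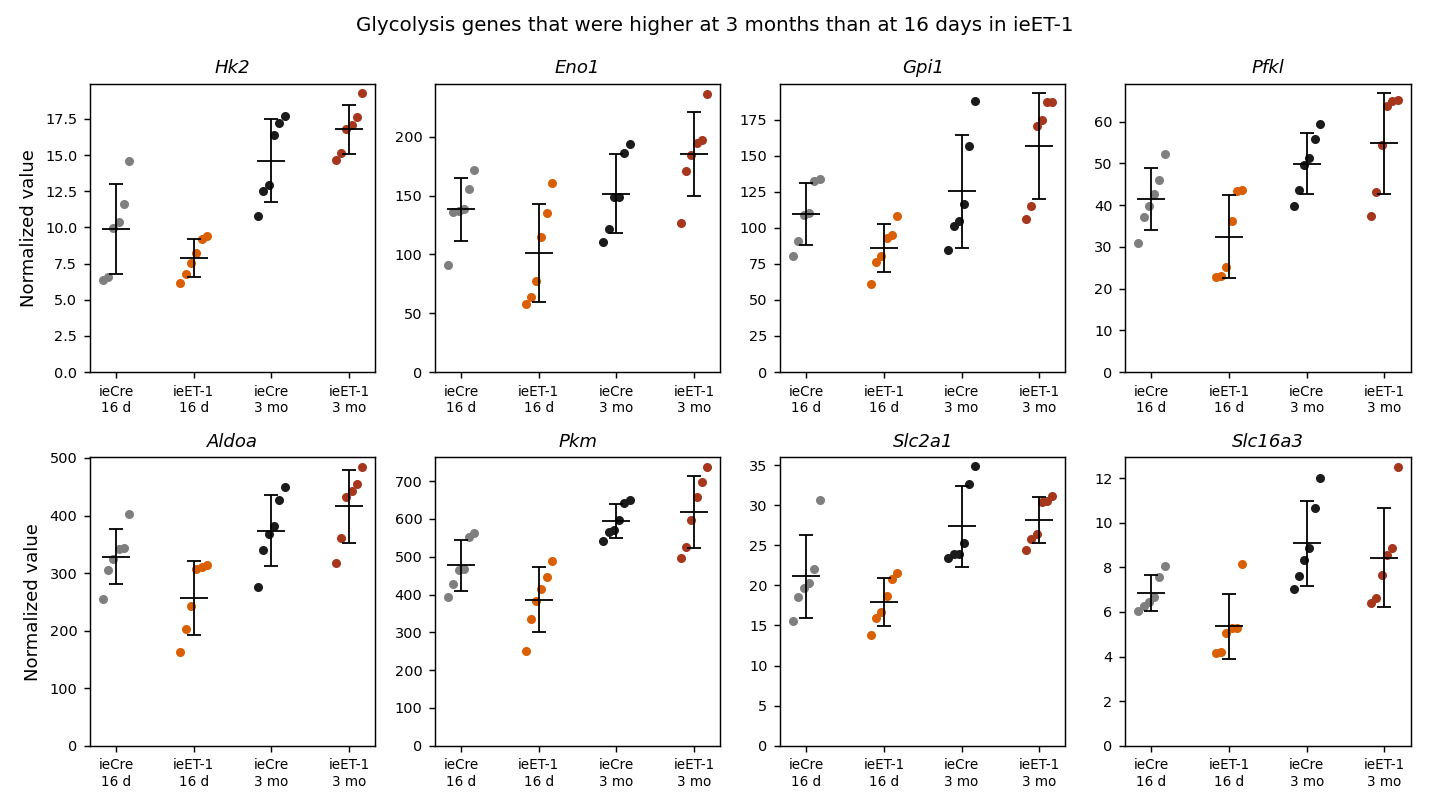
Normalised value (linear) of the 8 genes that passed in the ieET-1 change with time, 1 point per mouse. Bars give the mean and SD of 6 mice in each of the 4 groups. The scale is close to CPM except in the 4 libraries rich in Gm42418. The 3-month ieET-1 points of Hk2 lie at 14.6 to 19.3, above all 16-day ieET-1 points at 6.14 to 9.42, whereas those of Eno1 overlap.

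Glucose enters cells through facilitative transporters. Slc2a1, the widely expressed glucose transporter (chr4:119108711-119137983, plus strand), had a lowest, median and highest normalised value of 13.8, 17.7 and 21.5 in ieET-1 at 16 days and of 24.4, 28.4 and 31.2 at 3 months. Every 3-month ieET-1 mouse was above every 16-day ieET-1 mouse. The log2 change was 0.63 with a standard error (SE) of 0.14 (limma, adjusted p = 0.00549). In ieCre the values were 15.5, 19.96 and 30.7 at 16 days and 23.4, 24.6 and 34.9 at 3 months, which overlap, with a log2 difference of 0.37 (SE 0.14, limma adjusted p = 0.137) that passed without mouse 8754. Slc2a3, the high-affinity transporter of neurons and blood cells, had group means between 14.3 and 16.1 and no difference past the threshold in any comparison.

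Hexokinases trap glucose in the cell by phosphorylation. Hk2, the inducible and insulin-responsive hexokinase (chr6:82725025-82774454, minus strand), had a lowest, median and highest value of 6.14, 7.88 and 9.42 in ieET-1 at 16 days and of 14.6, 16.9 and 19.3 at 3 months. The ieET-1 groups did not overlap, and the log2 change was 1.01 (SE 0.16, limma adjusted p = 0.000453), the largest among the 33 genes. In ieCre the values were 6.36, 10.2 and 14.6 at 16 days and 10.8, 14.7 and 17.7 at 3 months. The ieCre groups overlapped in part, and the log2 difference of 0.55 (SE 0.16) did not pass (limma, adjusted p = 0.0552). That ieCre value passed when mouse 10, 8754 or 9486 was left out, with log2 differences of 0.60, 0.66 and 0.62, and also with DESeq2 and with library weights. Hk1, the constitutive hexokinase bound to mitochondria, averaged 38.2 ± 15.5 (SD, n = 6) in ieCre and 25.5 ± 7.5 in ieET-1 at 16 days, and 25.2 ± 5.7 and 33.03 ± 15.4 at 3 months, with overlapping groups and no call.

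As shares of the 5 hexokinases per kilobase of merged exons, Hk1 held 57.8% ± 11.4 (SD, n = 6) in ieCre and 52.8% ± 7.7 in ieET-1 at 16 days, and 40.0% ± 7.0 and 42.2% ± 10.9 at 3 months. Hk2 held 22.3% ± 6.3 and 23.8% ± 3.2 at 16 days, and 33.2% ± 4.0 and 33.5% ± 9.1 at 3 months. The ranges of the Hk2 share still overlapped between times, at 20.05% to 29.2% and 22.8% to 45.4% in ieET-1, and no test was made on shares. With the length of the longest coding transcript in place of merged exons the Hk2 shares were lower, 15.1% and 24.6% in ieCre and 16.4% and 24.8% in ieET-1, in the same order of groups by time.

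**Figure D2:**
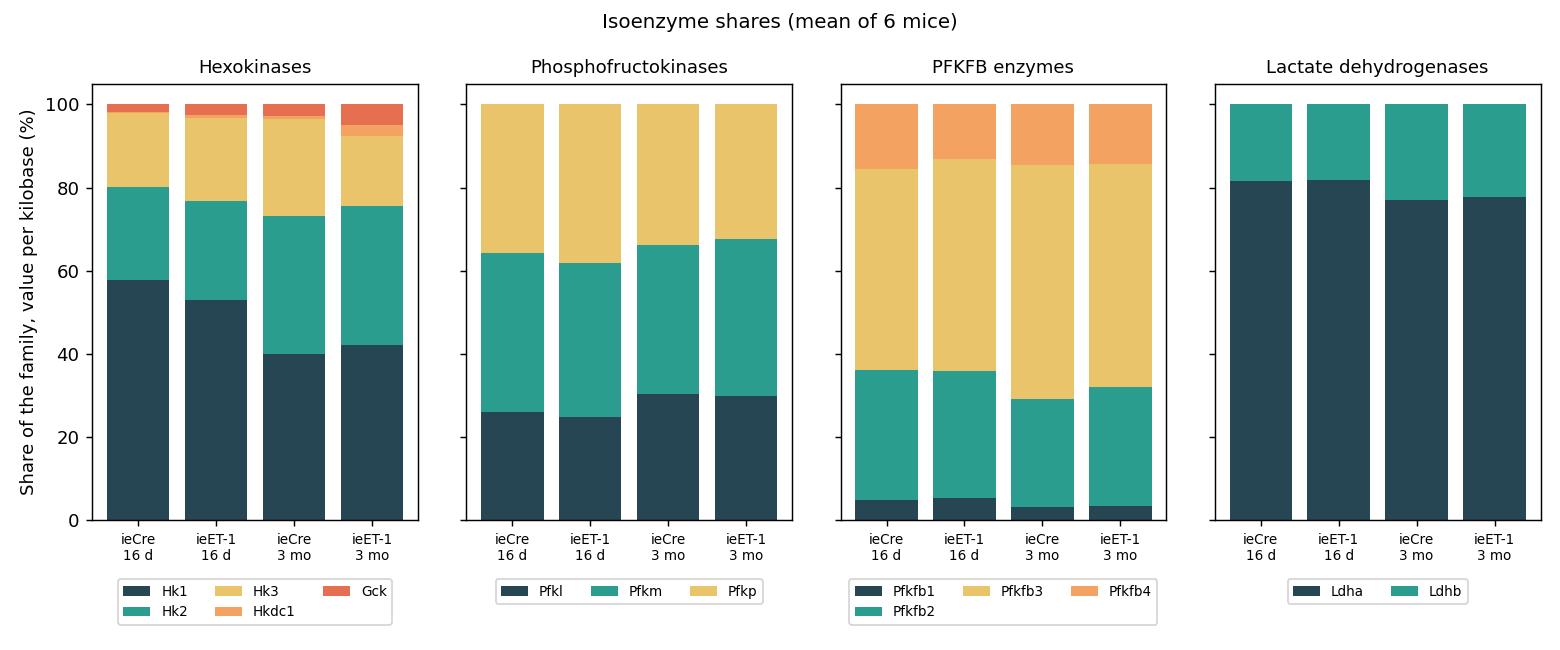
Share (%) of each isoenzyme in its family, from values per kilobase of merged exons, as the mean of 6 mice in each of the 4 groups, for hexokinases, phosphofructokinases, the bifunctional PFKFB enzymes and lactate dehydrogenases. The Hk1 share is 57.8% in ieCre at 16 days and 40.0% at 3 months, while Ldha stays between 77.1% and 81.8%.

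Gpi1 (chr7:34201330-34230336, minus strand), glucose-phosphate isomerase, carries sugar to the next step. Its lowest, median and highest values were 60.7, 86.8 and 108 in ieET-1 at 16 days and 106, 172 and 187 at 3 months. A single short-term mouse reached the level of the lowest long-term mouse, and the log2 change was 0.85 (SE 0.19, limma adjusted p = 0.00691). In ieCre the same values were 80.3, 110 and 134 at 16 days and 84.3, 111 and 188 at 3 months, with medians nearly alike and a log2 difference of 0.16 (SE 0.19, limma adjusted p = 0.693).

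Phosphofructokinase is the committed step of glycolysis and has a liver-type, a muscle-type and a platelet-type gene. Pfkl (chr10:77986947-78010083, minus strand), the liver type, had a lowest, median and highest value of 22.9, 30.7 and 43.6 in ieET-1 at 16 days and of 37.4, 59.1 and 65.2 at 3 months. The groups overlapped at their edges, and the log2 change was 0.77 (SE 0.17, limma adjusted p = 0.00791). Pfkm, the muscle type, averaged 24.1 ± 5.6 (SD, n = 6) and 35.0 ± 8.2 in ieET-1 at the 2 times, a log2 difference of 0.51 that did not pass (limma, adjusted p = 0.0760). Pfkp, the platelet type, averaged 97.3 ± 13.2 and 116 ± 13 in the same groups, a log2 difference of 0.26 (limma, adjusted p = 0.118). In ieCre the averages of Pfkl were 41.5 ± 7.4 and 49.9 ± 7.4, those of Pfkm 30.4 ± 5.5 and 30.1 ± 8.3 and those of Pfkp 112 ± 10 and 111 ± 16, with no call.

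Which phosphofructokinase was most abundant depended on the length used. Per kilobase of merged exons Pfkm held 35.9% to 38.2% and Pfkp 32.4% to 38.1% of the family across the 4 group means, while per kilobase of the longest coding transcript Pfkp held 51.5% to 58.3%. Pfkm overlaps Senp1 and Pfkp overlaps Pitrm1 on the opposite strand, and the library kit kept strand but the strand setting of the counting is not given in the sources used here. Pfkfb3 makes the activator of phosphofructokinase and is the main such enzyme of endothelial cells. It averaged 68.9 ± 11.3 and 89.8 ± 16.9 in ieCre at 16 days and 3 months, a log2 difference of 0.37 (SE 0.13) that did not pass (limma, adjusted p = 0.118), and 79.0 ± 13.7 and 82.4 ± 11.3 in ieET-1. Its share of the 4 PFKFB genes per kilobase was 48.3% to 56.2% across the groups. Pfkfb4, a hypoxia-inducible relative, had group means of 12.8 to 14.8 and no call.

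Aldolase and triose-phosphate isomerase make the 3-carbon sugars. Aldoa (chr7:126795234-126800751, minus strand) had a lowest, median and highest value of 163, 276 and 315 in ieET-1 at 16 days and of 318, 437 and 485 at 3 months. The ieET-1 groups did not overlap, though by a small margin, and the log2 change was 0.72 (SE 0.16, limma adjusted p = 0.00586). In ieCre the values were 256, 333 and 402 and then 277, 375 and 449, which overlap, with a log2 difference of 0.18 (limma, adjusted p = 0.572). Aldoa made up 99.0% to 99.2% of aldolase per kilobase in every group, and Aldoc group means stayed between 0.761 and 1.84. Tpi1, the isomerase, averaged 131 ± 26 and 175 ± 36 in ieCre at the 2 times, a log2 difference of 0.41 (limma, adjusted p = 0.123) that passed when mouse 8088 was left out (0.49) or libraries were weighted (0.48), and 130 ± 9 and 161 ± 30 in ieET-1.

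The lower steps turn those sugars into pyruvate. Eno1, the widely expressed enolase (chr4:150236721-150248879, plus strand), had a lowest, median and highest value of 57.6, 95.9 and 161 in ieET-1 at 16 days and of 127, 190 and 236 at 3 months. Its log2 change was 0.94 (SE 0.22, limma adjusted p = 0.00843), although 2 of the 16-day mice lay above the lowest 3-month mouse. In ieCre Eno1 had values of 90.9, 138 and 172 and then 111, 149 and 194, a log2 difference of 0.13 (limma, adjusted p = 0.800). Pkm (chr9:59656368-59679375, plus strand), which makes pyruvate, had values of 250, 399 and 490 in ieET-1 at 16 days and of 498, 627 and 738 at 3 months. These did not overlap, and the log2 change was 0.69 (SE 0.14, limma adjusted p = 0.00257). The table is per gene, so the splice forms of Pkm were not analysed here. In ieCre its values were 392.4, 465.9 and 563 and then 541, 584 and 651, a log2 difference of 0.32 (SE 0.14, limma adjusted p = 0.204). Pgk1, phosphoglycerate kinase, had group means of 46.8 to 51.3, Pgam1, the brain-type mutase, of 18.8 to 22.1, and Eno2, the neuronal enolase, of 15.7 to 16.4, with no call.

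Lactate is made by lactate dehydrogenase and leaves through monocarboxylate transporters. Ldha averaged 244 ± 38 in ieCre and 240 ± 30 in ieET-1 at 16 days (SD, n = 6), and 282 ± 48 and 275 ± 53 at 3 months. The 4 groups overlapped, and the 95% interval of the change in ieET-1 ran from -0.09 to 0.46 on the log2 scale. Slc16a3, the exporter typical of glycolytic cells (chr11:120948480-120960868, plus strand), had a lowest, median and highest value of 4.18, 5.17 and 8.15 in ieET-1 at 16 days and of 6.39, 8.12 and 12.5 at 3 months. The groups overlapped through 1 high short-term mouse (8992), and the log2 change was 0.57 (SE 0.15, limma adjusted p = 0.0211). It no longer passed without mouse 257 or mouse 258, with log2 changes of 0.51 and 0.51. In ieCre it averaged 6.84 ± 0.80 and 9.09 ± 1.90, a log2 difference of 0.35 that did not pass (limma, adjusted p = 0.219).

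Values in the 2 ieET-1 groups did not overlap for 4 of the 33 genes (12.1%), namely Slc2a1, Hk2, Aldoa and Pkm, all higher at 3 months, against 2.19% of all genes higher in that way, 1.33% lower and 3.52% in either direction. In ieCre 0 of the 33 genes had groups that did not overlap between times, against 2.61% of all genes (1.57% higher and 1.05% lower). Between genotypes it was 0 of the 33 at both times, against 0.763% of all genes at 16 days (0.364% higher and 0.399% lower) and 0.103% at 3 months (0.0619% and 0.0413%). Of the 20 glycolysis genes, 19 had a difference above 0 in ieET-1, as did 51.8% of all genes tested. The median log2 difference of the 20 was 0.40, while that of all genes tested was 0.01. In ieCre 14 of the 20 were above 0 with a median of 0.15, as were 52.5% of all genes. The 20 genes were measured in the same mice, so their signs are not independent. The exception in ieET-1 was Pgk1 at -0.14. The 13 hypoxia genes had medians of 0.02 in ieET-1 and of -0.00 in ieCre.

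**Figure D3:**
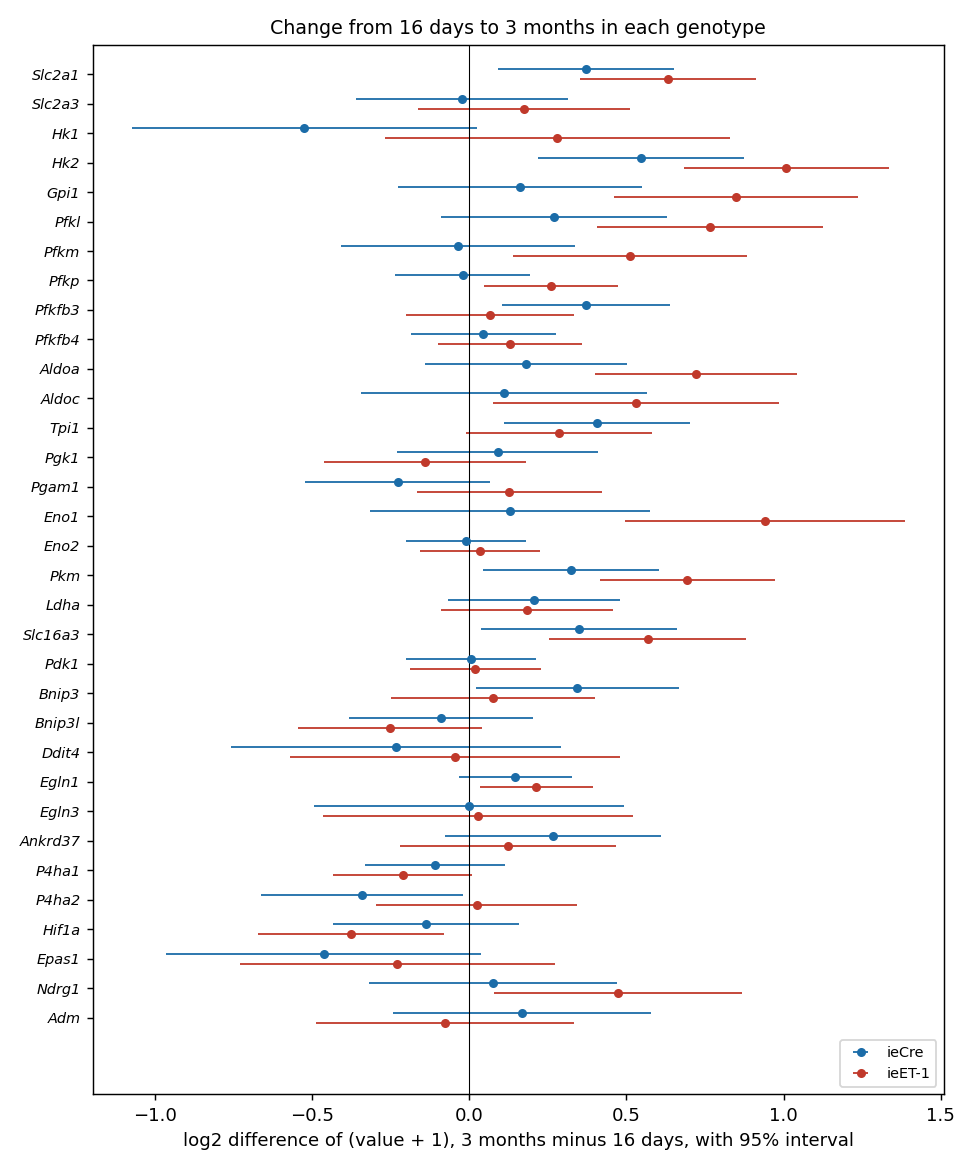
Difference from 16 days to 3 months in log2(value + 1) with its 95% interval for each of the 33 genes, in ieCre and in ieET-1 (6 mice per group). The ieET-1 estimate of Hk2 is 1.01 and that of Eno1 is 0.94, while the hypoxia genes in the lower part of the plot lie on both sides of 0, from -0.46 to 0.34 in ieCre and from -0.38 to 0.47 in ieET-1.

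The 3 short-term ieET-1 mice with an ID of 1 to 3 digits (256, 257 and 258) had low values for many of these genes. Relative to the ieCre short-term mean, the median over the 20 glycolysis genes was -0.30, -0.50 and -0.32 on the log2 scale in these mice, and -0.08, -0.13 and 0.04 in mice 8987, 8991 and 8992. Eno1 averaged 66.2 in the first 3 and 137 in the other 3, and Pfkl averaged 23.7 and 41.1. At 3 months the 4 ieET-1 mice with IDs of 80xx to 81xx averaged 203 for Eno1 and 62.1 for Pfkl, and the 2 with IDs of 94xx averaged 149 and 40.4. For these genes the 94xx mice lay near the 4-digit short-term mice. Other genes that passed differed more between those mice, with means of 450 in the 4-digit short-term and 598 in the 94xx mice for Pkm, 20.3 and 25.1 for Slc2a1, and 6.16 and 9.44 for Slc16a3. Without the short-term mice whose ID has 1 to 3 digits, a choice made after seeing the data, 1 of the 33 genes passed in ieET-1: Hk2, with a log2 change of 0.96. Over all genes that setting called 204 of 14544, against 1260 with every mouse. Hk2 differed little by ID, with ieET-1 means of 7.5 and 8.26 at 16 days and 17.1 and 16.1 at 3 months. The ranges were set separately at each time, and the 3-month IDs also have 4 digits. No block of close IDs holds mice of both times, so time and ID cannot be told apart.

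**Figure D4:**
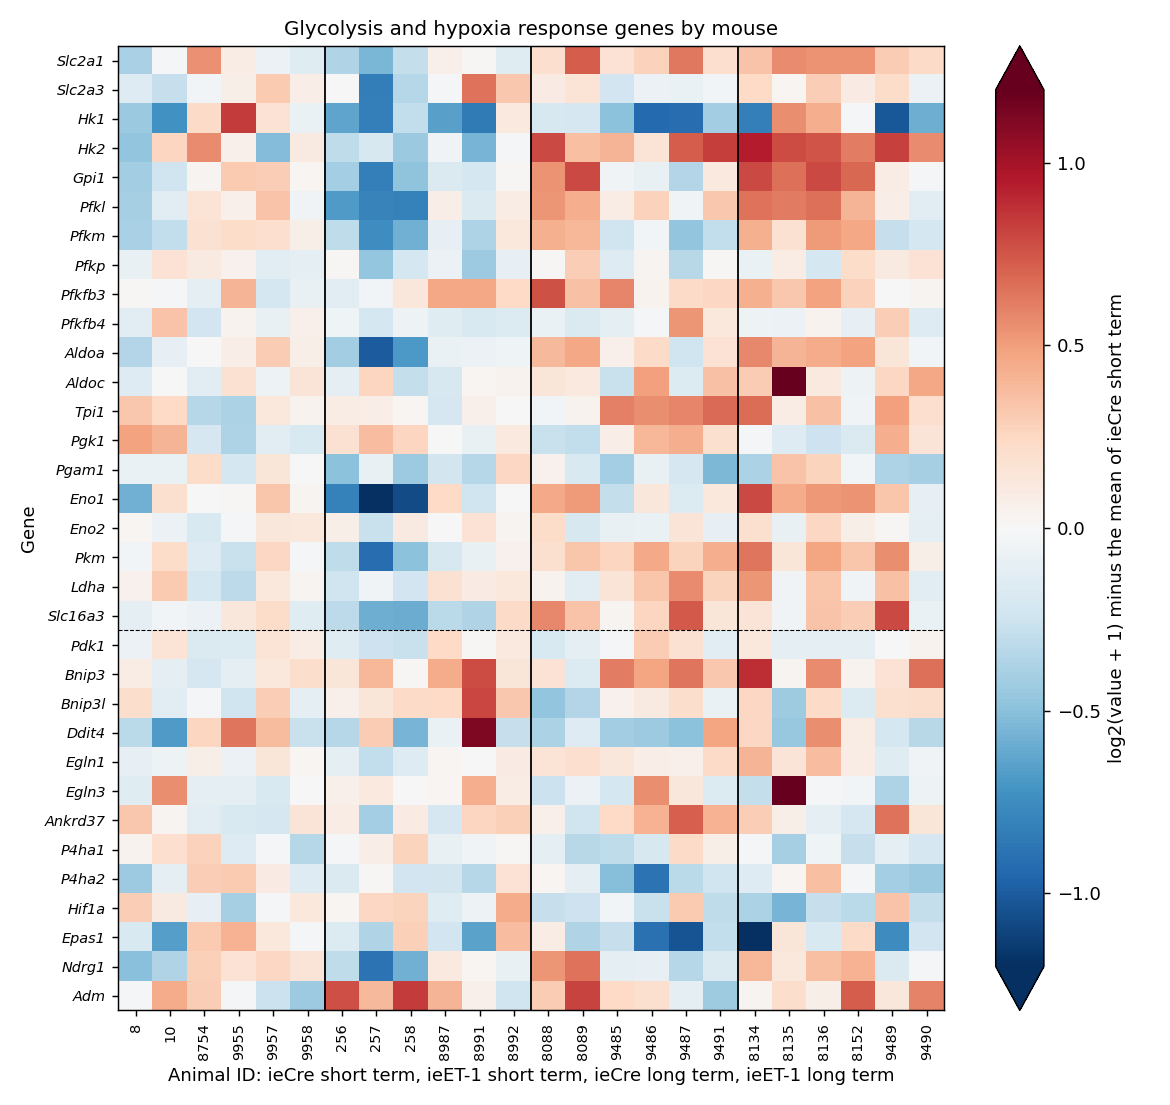
Each of the 33 genes (vertical axis) in each of the 24 mice (horizontal axis, by animal ID), coloured by log2(value + 1) minus the mean of ieCre short term; solid lines part the 4 groups and the dashed line parts glycolysis from hypoxia genes. Mice 256, 257 and 258 show low glycolysis genes, with medians of -0.30, -0.50 and -0.32, and Egln3 and Aldoc stand out in mouse 8135.

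Markers of several other cell types differed with time as well. In ieET-1 the sum of the 7 smooth muscle markers was 8926 to 14822 at 16 days and 13061 to 16535 at 3 months, with 5 of the 6 short-term mice below every long-term mouse. In ieCre that sum was 12453 to 15793 and then 9154 to 21017. The pancreatic acinar sum averaged 5271 and 32676 in ieET-1 at the 2 times, with overlapping ranges, and 9545 and 14421 in ieCre. The brown adipocyte sum, with 4 of 5 markers past the filter, was lower with time, at 75.2 to 139 and then 41.7 to 68.9 in ieET-1, which do not overlap, and at 46.3 to 136 and then 34.8 to 63.9 in ieCre. All 8 adipocyte markers passed the filter, none was at 0 in any group, and their sum ran from 519 to 675 in ieCre and 496 to 959 in ieET-1 at 16 days, and from 814 to 1316 and 687 to 1548 at 3 months. The leptin gene Lep averaged 14.5 and 17.46 at 16 days and 112 and 119 at 3 months. The list holds the insulin-responsive glucose transporter Slc2a4, which arterial muscle also expresses. With the adipocyte score as a term, added after seeing the data, 0 of the 33 genes and 144 of all 14544 passed in ieET-1, and the log2 change of Hk2 was 0.78 and that of Pkm 0.57. With the smooth muscle score as a term, also added after seeing the data, 10 of the 33 and 1670 of all genes passed. The adipocyte score itself differed between the times. Without the 4 libraries rich in Gm42418 4 of the 33 (Slc2a1, Hk2, Aldoa and Pkm) and 603 of all genes passed. The part of these cell types in the changes with time was not tested further.

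Oxygen sensing and its targets were next set against the same times. None of these 13 genes passed in either genotype, against 8.66% of all genes called in ieET-1 and 3.3% in ieCre. With 13 genes, a count of 0 does not set them apart from those shares. Glycolysis genes that the hypoxia-inducible factors also switch on are counted above and not here. Hif1a, the alpha subunit present in most cells, had a lowest, median and highest value of 280, 341 and 423 in ieET-1 at 16 days and of 209, 250 and 393 at 3 months. The groups overlapped through mouse 9489 at 393, and the log2 difference of -0.38 (SE 0.14) did not pass (limma, adjusted p = 0.0994). In ieCre Hif1a averaged 313 ± 50 and 285 ± 53. Epas1, the alpha subunit prominent in endothelium, averaged 357 ± 88 and 260 ± 73 in ieCre and 328 ± 89 and 289 ± 103 in ieET-1, with wide overlap and log2 differences of -0.46 and -0.23 that did not pass (limma, adjusted p = 0.323 and 0.589).

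The prolyl hydroxylases set the stability of those subunits. Egln1, the main oxygen sensor of the family, averaged 72.9 ± 4.9 in ieCre and 69.4 ± 6.8 in ieET-1 at 16 days, and 80.8 ± 3.8 and 81.02 ± 12.4 at 3 months, with log2 differences of 0.15 and 0.21 that did not pass (limma, adjusted p = 0.386 and 0.125). Egln3, which hypoxia itself induces, had group medians of 4.89, 5.73, 4.89 and 5.19 for ieCre and ieET-1 at 16 days and then at 3 months. The highest long-term ieET-1 value, 19.2 in mouse 8135 (125 reads), stood far above the other 5 at up to 5.29. Per kilobase Egln1 held 56.9% to 61.3% of the 3 hydroxylases and Egln3 5.29% to 7.17%.

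Among the targets, Adm, the vasodilator peptide adrenomedullin, averaged 23.97 ± 5.72 in ieCre and 31.7 ± 8.95 in ieET-1 at 16 days, and 27.4 ± 8.4 and 29.5 ± 6.5 at 3 months, with overlapping groups. Bnip3 and Bnip3l, receptors of mitophagy, had group means of 45.3 to 61.2 and of 115 to 151. Ddit4, an inhibitor of the growth kinase mTOR, had means of 21.4 to 27.3, and Pdk1, which keeps pyruvate out of mitochondria, of 34.3 to 35.6. P4ha1 and P4ha2, the collagen prolyl hydroxylases, had means of 117 to 136 and of 27.7 to 35.3. Ndrg1, a stress-responsive gene of differentiated cells, had means of 210 to 286 and a log2 difference of 0.47 with time in ieET-1 that did not pass (limma, adjusted p = 0.122). Ankrd37 had means of 1.00 to 1.44 and lies opposite Ufsp2, whose mean value of 37.9 makes it uncertain.

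The effect of endothelin-1 was asked by comparing ieET-1 with ieCre at each time. At 16 days 0 of the 33 genes passed, against 0.0825% of all genes (0.0138% higher and 0.0688% lower), and 6 had an unadjusted p under 0.05, as did 1441 of all genes (9.91%). The count tests also called 0 of the 33, against 0.0481% of all genes with edgeR and 0.282% with DESeq2. Most glycolysis genes were on the low side in ieET-1, with 16 of 20 below 0 and 4 above, where 47.7% of all genes were above 0. The median log2 difference of the 20 was -0.22, against -0.01 over all genes tested. The 3 with the smallest p were Aldoa, Eno1 and Pkm. Aldoa had values of 256, 333 and 402 (lowest, median and highest) in ieCre and 163, 276 and 315 in ieET-1, which overlap, a log2 difference of -0.38 (SE 0.16, limma adjusted p = 0.480). Eno1 had values of 90.9, 138 and 172 in ieCre and 57.6, 95.9 and 161 in ieET-1, a log2 difference of -0.52 (SE 0.22, limma adjusted p = 0.485). Pkm had values of 392.4, 465.9 and 563 in ieCre and 250, 399 and 490 in ieET-1, a log2 difference of -0.32 (SE 0.14, limma adjusted p = 0.486). None of these passed, and the groups overlapped in each.

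**Figure D5:**
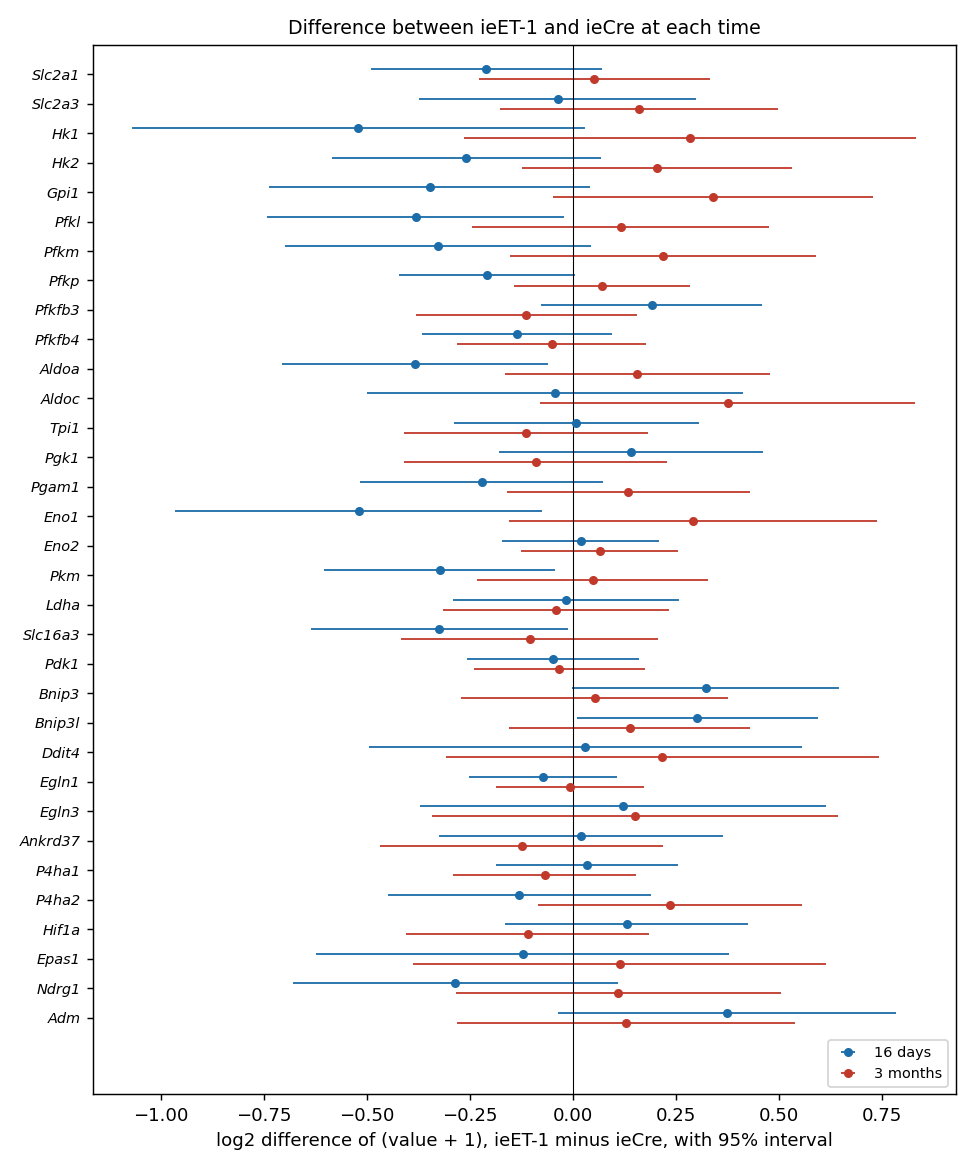
Difference between ieET-1 and ieCre in log2(value + 1) with its 95% interval for each of the 33 genes, at 16 days and at 3 months (6 mice per group). The estimates of Eno1 are -0.52 and 0.29 and those of Hk2 are -0.26 and 0.20, and no gene passed the test at either time.

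Without the short-term mice whose ID has 1 to 3 digits, which include those 3 ieET-1 mice, the log2 differences were -0.18 for Aldoa, -0.10 for Eno1 and -0.03 for Pkm. Within the 1 to 3 digit range 3 of the 20 glycolysis genes averaged higher in ieET-1 than in ieCre (3 and 2 mice). Within the 4 digit range 6 of 20 did (3 and 4 mice). In the first range the IDs were 256, 257 and 258 in ieET-1 and 8 and 10 in ieCre. In the second they were 8987, 8991 and 8992 against 8754, 9955, 9957 and 9958. The genotypes thus share no block of close IDs at 16 days, and genotype and ID cannot be told apart there. Smooth muscle markers were also low: 7 of 7 passed the filter, and their sum was 12453 to 15793 in ieCre and 8926 to 14822 in ieET-1, with 5 of the 6 ieET-1 mice below every ieCre mouse. With the smooth muscle score as a term, added after seeing the data, the log2 differences were -0.11 for Aldoa, -0.27 for Eno1 and -0.27 for Pkm. Adrenal cortex markers, 5 of 5 past the filter, summed to 32.7 to 563 in ieCre and to 2.68 to 73.0 in ieET-1 at 16 days. The part of either cell type in the low glycolysis values was not tested further.

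At 3 months 0 of the 33 genes passed, against 0.00688% of all genes, and 0 had an unadjusted p under 0.05, where 435 of all genes did. With edgeR and with DESeq2 on the recovered reads 0 of the 33 passed as well, against 0.00688% and 0.00689% of all genes. The 3 with the smallest p were Gpi1, Aldoc and P4ha2, with log2 differences of 0.34 (SE 0.19), 0.38 (SE 0.22) and 0.23 (SE 0.15), each with a limma adjusted p of 0.999. Gpi1 had values of 84.3, 111 and 188 in ieCre and 106, 172 and 187 in ieET-1, and P4ha2 18.3, 28.4 and 35.2 and then 25.2, 32.6 and 44.9, which overlap. Aldoc had values of 0.501, 0.970 and 1.53 in ieCre and 0.725, 1.18 and 5.53 in ieET-1, and without the highest mouse, 8135, its log2 difference was 0.10. Within IDs of 80xx to 81xx Gpi1 averaged 172 in ieCre (2 mice) and 180 in ieET-1 (4 mice). Within 94xx it averaged 102 (4 mice) and 110 (2 mice). With ID range as a term its log2 difference was 0.10. The part of ID range in the Gpi1 difference was not tested further.

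The interaction asks whether the effect of genotype differed between the times, or equally whether the change with time differed between genotypes. None of the 33 genes and none of all 14544 genes passed (0%, limma), with a smallest adjusted p of 0.752. Unadjusted, 6 of the 33 and 731 of all genes had p under 0.05. The count tests called 0 of all genes with edgeR and 6 (0.0413%) with DESeq2, with 0 of the 33 among them. The 3 with the smallest p were Eno1, Gpi1 and Aldoa, with log2 interactions of 0.81 (SE 0.31), 0.69 (SE 0.27) and 0.54 (SE 0.22), each with a limma adjusted p of 0.752. For Eno1 the 95% interval was 0.18 to 1.44, and 0.14 to 1.24 for Gpi1. For Hk2 it was 0.00 to 0.92. These rises in ieET-1 were thus not shown to exceed those in ieCre.

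Other genes of the same pathways were taken from lists that do not hold the 33. Of 20 tested genes of glycolysis and lactate handling, 2 were called higher and 3 lower with time in ieET-1. Over all genes 5.27% were called higher and 3.39% lower there. In ieCre 1 was called higher and 1 lower, against 1.93% and 1.37% of all genes. The median log2 changes of the list were 0.17 in ieET-1 and 0.10 in ieCre. Ldhb, the lactate dehydrogenase of heart, rose in both, with log2 changes of 0.52 (SE 0.14) in ieET-1 and 0.58 (SE 0.14) in ieCre (limma, adjusted p = 0.0194 and 0.0176). Pgam2, the muscle-type mutase, fell in both, by 0.83 and 0.63 on the log2 scale (limma, adjusted p = 0.00451 and 0.0419). Pfkfb1, best known from liver, was lower in ieET-1 at -0.48 (limma, adjusted p = 0.0321). The other called genes, both in ieET-1, were Tigar, which lowers the activator of phosphofructokinase, at 0.26 and Pdk4, which blocks pyruvate oxidation in fasting, at -0.82 (limma, adjusted p = 0.0464 and 0.0379).

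Of 13 tested genes of the oxygen-sensing machinery 1 was called in each genotype, against 8.66% of all genes in ieET-1 and 3.3% in ieCre. That gene was Egln2, another prolyl hydroxylase, higher with time in both. Its log2 changes were 0.54 (SE 0.09) in ieET-1 and 0.35 (SE 0.09) in ieCre (limma, adjusted p = 0.000704 and 0.0280). Of 26 tested further targets of the hypoxia-inducible factors, 1 was called higher and 4 lower in ieET-1, and 2 higher and 4 lower in ieCre. Over all genes 5.27% were called higher and 3.39% lower in ieET-1, and 1.93% and 1.37% in ieCre. The median log2 changes of the list were -0.10 in ieET-1 and -0.14 in ieCre. Lox, which crosslinks collagen, fell by 0.49 and 0.62, and Loxl2, its relative, fell by 0.61 and 0.91 on the log2 scale in ieET-1 and ieCre (limma, adjusted p = 0.0261, 0.0115, 0.0295 and 0.00358). Mif, a cytokine that slows macrophage migration, rose by 0.54 in both genotypes (limma, adjusted p = 0.0194 in ieET-1 and 0.0321 in ieCre). Edn1, mouse endothelin-1, fell by 0.47 on the log2 scale in ieET-1 (limma, adjusted p = 0.0196), and whether reads of the human transgene count towards it was not tested, and Rgs5, a regulator of G proteins in pericytes and arterial muscle, rose by 1.41 in ieCre (limma, adjusted p = 0.0145). The lists and the 33 genes share mice in every comparison. In the comparisons of genotype and in the interaction 0 genes of the 3 lists passed, and the smallest adjusted p among them was that of Rgs5 at 16 days, 0.441 (limma).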

How the data were processed

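Total RNA of mesenteric arteries from 24 male mice was sequenced; per the labels' protocols the arteries were cleared of fat and veins, ribosomal RNA was depleted and stranded libraries were made for an Illumina sequencer. Per the submitters' processing notes the tools were edgeR 3.6.8 and R 3.2.3, STAR 2.3.1, bcl2fastq 1.8.4 and FastQC, with no roles. Which build, annotation and counter were used is not given in the sources used here. Each entry of the deposited table is 1 normalised signal per gene and library. Dividing each value by its column's smallest gave whole reads for 100% of 482036 positive values within 0.001. The signal is thus reads over an effective library size set by the authors. It is close to CPM except in the 4 libraries rich in Gm42418, where a read counted for more. An entry named ID followed the animal ID number of each library and is not a gene, so it was left out. It came to at most 0.0993% of a library's total. CPM had been assumed when the test was chosen, and the test was kept.

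Symbols and locations came from GENCODE mouse release 21 on GRCm38 (97.9% of 29020 genes), promoters from RefSeq on GRCm38.p6; the annotation may differ from the authors'. R 4.3.3 ran limma 3.58.1 with a variance trend on log2(value + 1), for 14544 genes at 1 or more in at least 6 libraries, as 1 model of 4 groups without covariates; the scripts were tested on simulated data. Fold changes on this scale understate those of low genes. The count tests on recovered reads, edgeR 4.0.16 and DESeq2 1.42.0, called 1315 and 1898 genes for time in ieET-1 where limma called 1260, 480 and 794 in ieCre (limma 480), and 7 and 41 for genotype at 16 days (limma 12).

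Members and lists were chosen with earlier results of these data known. For each comparison every member that passed was described, or the 3 with the smallest p where fewer than 3 passed; Slc2a1, Hk1, Hk2, Pfkl, Pfkm, Pfkp, Pkm, Ldha, Hif1a, Epas1, Egln1, Egln3 and Adm were described in any case, and up to 3 genes of each pathway list. Each library is 1 mouse, so p-values measure the spread between these mice, and animal IDs pair no mice across groups. Alternatives were the pseudocount, the filter, the count tests, the scaling, the groups in the fit, library weights, animal ID range, marker scores as terms, and leaving out libraries. Near-identical copies named for Aldoa, Pgk1, Pgam1, Eno1, Ldha and Bnip3l had values under 0.4% of the gene's own.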

Additional observations from a re-analysis of the deposited data

Results flagged for a closer look

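In 12 of the 132 sets of 6 values (33 genes in 4 groups) the highest or lowest mouse stood apart from the nearest other by more than 0.625 of the range. About 1 in 20, or 6.6, would pass by chance if the sets were independent and normally spread. These are linear values and the sets share mice, so 12 against 6.6 cannot be read as an excess. Mouse 8135 (ieET-1 long term), with 21.3% of its reads on Gm42418, was high for Egln3 at 19.2 and for Aldoc at 5.53. Mouse 8991 (ieET-1 short term) was high for Bnip3l at 212, for Ddit4 at 54.5 and for Egln3 at 7.65. In the same group mouse 8992 was high for Slc16a3 at 8.15 and mouse 8987 low for Tpi1 at 112. In ieCre short term mouse 9955 was high for Pfkfb3 at 90.8 and mouse 10 for Egln3 at 8.41. In ieCre long term mouse 9487 was high for Pfkfb4 at 20.8 and mouse 9491 for Ddit4 at 34.5. In ieET-1 long term mouse 9489, with the most detected genes (24399), was high for Hif1a at 393.

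For Hk2 the mean of ieET-1 minus that of ieCre was 4.19 higher at 3 months than at 16 days. All ieET-1 mice lay on opposite sides of the ieCre mean at the 2 times, a pattern that is itself untested. The margins were small: the highest 16-day ieET-1 value was 9.42 against an ieCre mean of 9.91. At 3 months the lowest ieET-1 value was 14.63 against an ieCre mean of 14.60, and ieCre mice ran from 10.8 to 17.7. The limma interaction of Hk2 was 0.46 on the log2 scale with an adjusted p of 0.752.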

How the results depend on the processing

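No paired analysis was possible because each animal ID occurs once and the groups share no replicate number. The count of members that passed for genotype at either time and for the interaction was 0 under all alternatives run. For the change with time in ieET-1 it was 8, where 1260 of all genes passed. It was 4 without the libraries rich in Gm42418 (603 of all genes) and 5 with the adrenal cortex score as a term (503). It was 0 with the adrenal cortex, adipocyte and pancreatic acinar scores (46) and 0 with the adipocyte score alone (144). Without the short-term mice with an ID of 1 to 3 digits it was 1 (204). Calls over all genes thus fell under each of these settings too. With 1 library left out it was 7 to 11, while calls over all genes ran from 698 to 1566. For time in ieCre it was 0, where 480 of all genes passed. It was 0 to 2 with 1 library left out (272 to 592 of all genes), 1 with DESeq2 (794) and 4 with library weights (2220). Pfkfb3 in ieCre turned to -0.16 with the 3 scores and to -0.018 with the adipocyte score; the cause was not tested. Slc16a3 in ieET-1 also missed the threshold when rescaled without Gm42418 (0.49) and with only the compared groups fitted (0.57). The median interaction of the members, 0.20, was 0.08 with ID range as a term and 0.08 without the 1 to 3 digit mice, and the median change in ieCre, 0.09, was -0.02 with the adipocyte score. ID range as a term was not run for time, since the ranges were set separately at each time.

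Over all genes the alternatives called 46 (the 3 scores) to 1898 (DESeq2) for time in ieET-1, 11 (the 3 scores) to 2220 (library weights) in ieCre, 1 to 55 for genotype at 16 days (12), 0 to 2 at 3 months (1) and 0 to 6 for the interaction (0). In ieET-1 767 of the 1260 were higher; the split became 563 and 600 with quantile normalization and 308 and 716 when rescaled without Gm42418, which moved the median of all genes to -0.07.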
